A study of Mus musculus with 12 samples.

Results

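The expression of 10 immediate early transcription factor genes was followed in the RNA of dermal papilla (DP) cells: Fos, Fosb, Fosl2, Jun, Junb, Jund, Egr1, Egr2, Egr3 and Atf3. They were chosen by gene name from the tables of both days. All 10 were present in each table, among 15557 protein-coding genes listed in either table and 14986 listed in both. No other type of gene was listed. The DP is the mesenchymal core of the hair bulb, whose signals pace the growth phase (anagen) of the follicle. Cells were sorted by FACS for YFP from 3 control and 3 dMF1/2 mice at P14 and from as many at P16, and RNA-seq gave 12 libraries. The comparison asks whether these genes follow the genotype, the day or the single library.

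Immediate early genes are transcribed within minutes of a growth factor, a mechanical or a stress signal, from factors already present in the cell, and most of their transcripts are short-lived. Fos and Jun family proteins pair through leucine zippers into AP-1, which binds DNA and switches on later genes. Egr proteins are zinc finger factors that bind GC-rich sites, and Atf3 is a stress-inducible zipper factor that can pair with Jun proteins. Fgf receptors induce these genes through the ERK pathway, and the enzymatic dissociation of tissue is also known to induce them, so that both can act on the same transcripts in sorted cells.

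The dMF1/2 mice carried floxed alleles of Fgfr1 and Fgfr2, deleted by Cor-cre, a Cre expressed from the Corin locus and active in the DP. The labels call the controls wild type. By the study's methods, YFP came from a Cre-dependent ROSA26 reporter, and the control genotype with Cor-cre had 1 floxed copy of each receptor gene, so that sorted control cells of that genotype would lack that copy. Labels place both days in anagen. Whole skin was kept in trypsin overnight in the cold and then in warm collagenase, and cells passed through repeated sorting, which all groups shared. Fgfr1, which encodes a targeted receptor, had 9981, 7745 and 8929 normalized reads in the P14 control libraries and 7405, 6391 and 6398 in dMF1/2. At P16 it had 12517, 8512 and 9940 in control and 8015, 6226 and 7552 in dMF1/2. The dMF1/2 libraries lay below the controls on both days, with log2 fold changes of -0.40 and -0.50 (limma adjusted p = 0.501 and 0.130). Fgfr2 had overlapping groups on both days, with log2 fold changes of -0.11 and -0.01 (limma adjusted p = 0.974 and 0.978). Reads were counted over whole genes.

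Library totals, summed over the listed genes of a day, ran from 19302358 to 29860750 reads. Both P14 libraries numbered 1 stood apart in the share of reads from the collagen gene Col1a1, 7.06% in control and 9.15% in dMF1/2, against 13.1% to 17.7% in the other 10. All 12 of the DP markers listed (Corin and Alpl among them) were present. Their summed level in CPM, the reads of a gene relative to all reads of its library, was 4537 to 9248 in P14 control, 4277 to 9188 in P14 dMF1/2, 1778 to 3640 in P16 control and 4410 to 6963 in P16 dMF1/2, so the genotypes did not overlap at P16. Dermal fibroblast markers (7 of 7 present) summed to 4527 to 7920 CPM over all libraries and dermal sheath markers (6 of 6) to 742 to 1926. Keratinocyte markers (11 of 13 in both tables) summed to 11.5 to 49.5 CPM and immune markers (5 of 8) to 8.49 to 17.4. Endothelial (6 of 6), melanocyte (7 of 7), muscle (4 of 6) and adipocyte markers (2 of 5) stayed at 21.7 to 73.8, 23.9 to 39.1, 50.4 to 185 and 8.67 to 45.0 CPM. Ptprc, the pan-leukocyte surface marker, and Dct, of melanocytes, reached 0 reads in at least 1 library. In bulk RNA, fewer cells of a type and less RNA per cell cannot be told apart.

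Promoter sequence is shown for the members that hold a short cAMP-response type site, since that site can bind ATF, CREB and some AP-1 dimers, and for Egr2, which holds a CArG box, the binding site of serum response factor. RefSeq windows (GRCm38.p6) were found for 8 members, all but Egr1 and Egr3, and 250 bases before each annotated start were searched on both strands in 12 windows, 5 of them of Egr2. Each line gives the 120 bases before a start, 5′ to 3′ on the gene's strand, with the matches to a motif in capitals. The motifs were TGACG (seen as CGTCA when it lies on the other strand), the TATA motif TATAAA, the Egr motif GCGNGGGCG and the CArG box, and none overlaps another here.
Fos, chr12:85473770-85473889, plus strand: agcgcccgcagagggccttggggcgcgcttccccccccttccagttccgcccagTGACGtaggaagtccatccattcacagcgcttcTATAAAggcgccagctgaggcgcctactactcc
Fosb, chr7:19310046-19310165, minus strand: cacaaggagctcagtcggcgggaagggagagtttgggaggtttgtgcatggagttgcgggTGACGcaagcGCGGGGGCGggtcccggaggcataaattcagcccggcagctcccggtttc
Junb, chr8:84978749-84978868, minus strand: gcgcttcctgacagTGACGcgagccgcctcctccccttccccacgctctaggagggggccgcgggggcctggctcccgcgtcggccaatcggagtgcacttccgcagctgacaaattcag
Egr2, chr10:67537749-67537868, plus strand: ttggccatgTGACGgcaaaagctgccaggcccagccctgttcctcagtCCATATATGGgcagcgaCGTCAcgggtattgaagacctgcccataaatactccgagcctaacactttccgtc
Atf3, chr1:191183334-191183453, minus strand: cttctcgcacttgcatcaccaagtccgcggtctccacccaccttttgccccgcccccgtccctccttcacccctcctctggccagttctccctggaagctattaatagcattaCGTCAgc

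TGACG, 66 to 62 bases before the start of Fos and 7 to 3 bases before that of Atf3, was present in 5 of the 8 members with a window, against 17.6% of 27025 promoters searched with 1 window each. A CArG box was present in Egr2 alone among the 8, in 4 of its windows, against 1.39% of the promoters. GCGNGGGCG, the core that Egr zinc fingers bind, was present in Fosb and Fosl2, against 4.55%. TGANTCA, the AP-1 site, had no match in these windows, against 6.87%. Egr2 had more windows than the single window counted for other genes, and a match is only a match of letters.

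Per kilobase of annotated exon, 7 of the members were among the 100 most abundant transcripts of 14958. Fos ranked at place 11 with a mean over the 12 libraries of 35149 normalized reads per kilobase, Jun at 15 with 16165, Egr1 at 32 with 10597, Junb at 33 with 10582, Fosb at 55 with 7687, Jund at 74 with 5841 and Atf3 at 98 with 4979. The other three were lower, Fosl2 at 773 with 785 per kilobase, Egr2 at 2829 with 242 and Egr3 at 8684 with 46.2. Together the members took 0.995% to 1.64% of the reads that a library had in the genes listed on both days, and 1.64% was that of P16 control replicate 1. Within libraries, Fos exceeded Jun in 12 of 12, by 2.20-fold on average (log2 ratio 1.14 ± 0.22, SD, n = 12). Egr1 and Junb did not differ beyond their spread (log2 ratio 0.01 ± 0.31, SD, n = 12), and neither did Jund and Atf3 (0.32 ± 0.49, SD, n = 12), Jund being higher in 8 of 12 libraries. Atf3 exceeded Fosl2 by 6.20-fold, Fosl2 exceeded Egr2 by 3.30-fold and Egr2 exceeded Egr3 by 5.26-fold, each in 12 of 12.

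**Figure D1:**
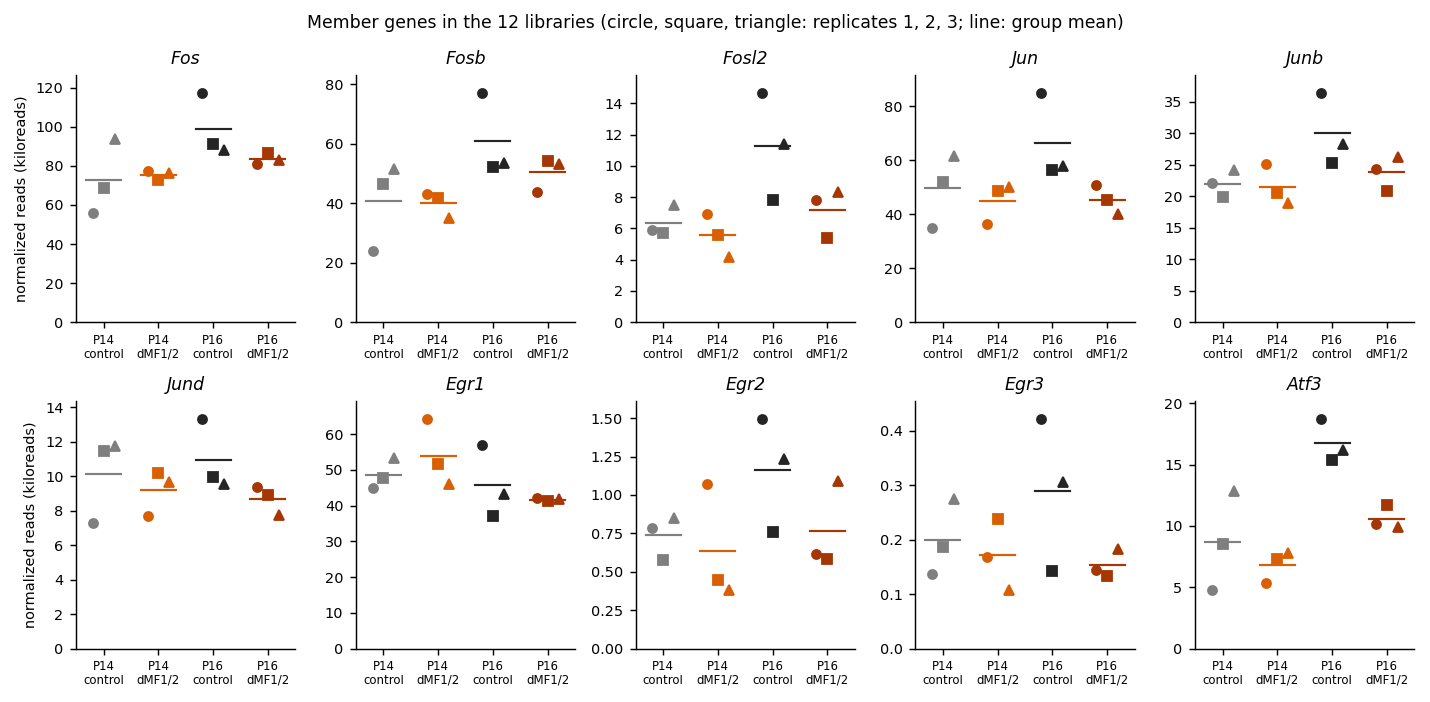
Normalized reads (in kiloreads, scaled over the 12 libraries) of the 10 members in each library, with a line at the group mean and a symbol for each replicate number. P16 control replicate 1 was the highest of its group for all 10 members, and the P16 groups of Atf3 stood clear of each other.

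At P14 none of the 10 members passed limma's test between the genotypes. The most abundant, Fos, had 55306, 67595 and 92563 normalized reads in control and 76289, 71999 and 75739 in dMF1/2. Its mutant libraries lay inside the control range, with a log2 fold change of 0.09 (SE 0.25, limma adjusted p = 0.998). Atf3 (ENSMUSG00000026628, chromosome 1 of GRCm38, 191170296 to 191218039) was at 4711, 8411 and 12682 in the control libraries and at 5294, 7216 and 7753 in dMF1/2. The control libraries of Atf3 alone spanned more than the mutant ones, and the log2 fold change of -0.25 (SE 0.35, limma adjusted p = 0.977) was within that spread. Log2 fold changes of the 10 ran from -0.36 for Egr2 to 0.14 for Egr1, 3 above 0 and 7 below, with a median of -0.12, against 0.0048 for all genes. That median was -0.30 without P14 control replicate 1 and 0.050 without P14 control replicate 3. Both ends of the range moved with single dMF1/2 libraries of P14: leaving out replicate 1 gave -0.81 for Egr2 and 0.015 for Egr1, and leaving out replicate 3 gave -0.073 and 0.25. No member had groups that did not overlap. Over all genes, 0.0525% of 13334 passed limma's test at this day and 12.7% had groups that did not overlap.

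The single libraries of P14 differed more than the genotypes. Control replicate 3 was the highest of its group for 10 of 10 members, and control replicate 1 the lowest for 7. In dMF1/2, replicate 1 was the highest for 6 members and replicate 3 the lowest for 6. Libraries of the same number deviated from their group means together over all genes (correlations of 0.586, 0.389 and 0.304), and they were therefore also read as pairs. In the first pair all 10 members were higher in dMF1/2, by 0.05 for Jun to 0.85 for Fosb on the log2 scale. In the third pair all 10 were lower in dMF1/2, from -0.21 for Egr1 to -1.34 for Egr3. No member had the same direction in all 3 pairs, as 34.5% of all genes did. Without both libraries numbered 1, the log2 fold changes of all 10 were below 0 with a median of -0.28, and again none passed limma's test. In that fit 3 members had an unadjusted p under 0.05 by limma, as did 1076 of 13312 genes.

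At P16, all 10 members had lower mean levels in dMF1/2 than in control, and Atf3 was the member that passed the test. Atf3 had 18974, 15663 and 16381 normalized reads in control and 10355, 11929 and 10112 in dMF1/2. Every mutant library lay below every control library, 10799 ± 987 against 17006 ± 1742 (SD, n = 3 each). The log2 fold change was -0.65 (SE 0.12, limma adjusted p = 0.0224; exact permutation test, two-sided, p = 0.1, the smallest that 3 against 3 allows). At this day 2.14% of 13457 genes passed the test as lower in dMF1/2 and 2.18% as higher. Without P16 control replicate 1, the highest Atf3 library, its log2 fold change was -0.57 (limma adjusted p = 0.0519). The call was also lost without P16 control replicate 3 (adjusted p = 0.0736), P16 dMF1/2 replicate 1 (0.0792) or P16 dMF1/2 replicate 3 (0.0956), in a fit of all 12 libraries together (-0.66, adjusted p = 0.240) and with a heat shock index as covariate (-0.72, adjusted p = 0.0871).

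Jun (ENSMUSG00000052684, chromosome 4, 95049034 to 95052222), the founding Jun family subunit, was at 86100, 57152 and 58555 normalized reads in the control libraries and at 52123, 46124 and 40689 in dMF1/2. Its groups did not overlap, and its log2 fold change was -0.52 (SE 0.20, limma adjusted p = 0.205). Jund, a subunit that many resting cells express, had 13515, 10107 and 9682 in control and 9573, 9077 and 7910 in dMF1/2. The lowest control library of Jund was just above the highest mutant library, at a log2 fold change of -0.31 (limma adjusted p = 0.292). Junb had 36963, 25666 and 28718 in control and 24919, 21235 and 26779 in dMF1/2. One mutant library of Junb exceeded the lowest control library, and the log2 fold change was -0.31 (limma adjusted p = 0.364). GENCODE M21 has antisense gene models over Jun and Jund and a small RNA model opposite Atf3. The libraries kept strand, but the strand setting of the counting was not given in the sources used here.

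In the Fos family no member passed without the block. Fos (ENSMUSG00000021250, chromosome 12, 85473890 to 85477273) was at 119048, 92968 and 89085 in the control libraries and at 82668, 87826 and 84847 in dMF1/2. The groups of Fos did not overlap, although 2 control libraries lay close to the mutant ones, and the log2 fold change was -0.23 (SE 0.18, limma adjusted p = 0.577). Fosb had 78184, 52963 and 54129 in control and 44723, 54987 and 54349 in dMF1/2. Apart from control replicate 1 and dMF1/2 replicate 1, the Fosb libraries lay within one narrow range, with a log2 fold change of -0.25 (limma adjusted p = 0.569). Fosl2, which encodes Fra-2, a Fos family member without a strong activation domain, had 14878, 7932 and 11547 in control and 7990, 5510 and 8504 in dMF1/2. Its mean was lower in dMF1/2 by a log2 fold change of -0.62 (SE 0.24, limma adjusted p = 0.214) and its groups overlapped.

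Among the Egr genes, Egr1 had 57867, 37688 and 43671 normalized reads in control and 42963, 42012 and 42561 in dMF1/2. The mutant libraries of Egr1 differed less among themselves than those of any other group of a member, and they lay inside the control range, with a log2 fold change of -0.10 (SE 0.17, limma adjusted p = 0.821). Egr2 had 1515, 773 and 1251 in control and 630, 593 and 1112 in dMF1/2, a log2 fold change of -0.61 (limma adjusted p = 0.327). Egr3 had 427, 144 and 310 in control and 147, 136 and 186 in dMF1/2, a log2 fold change of -0.78 (SE 0.35, limma adjusted p = 0.283). Both Egr2 and Egr3 had overlapping groups and a wide range in control. For Egr3 the value rested on single libraries, at -1.23 without P16 control replicate 2 (limma adjusted p = 0.0192, a call) and -0.45 without P16 control replicate 1 (0.565).

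Over the 10 members, the log2 fold changes at P16 had a median of -0.42, against -0.0043 for all genes, of which 50.8% lay below 0. The groups did not overlap, with dMF1/2 lower, for 4 members (Fos, Jun, Jund and Atf3), where 11.6% of all genes met that criterion. In 8 of 10 members the mutant library was lower in all 3 pairs of the same number, the exceptions being Fosb and Egr1, and 24.1% of all genes were lower in all 3. Correlations of same-numbered libraries over all genes were 0.256, 0.293 and 0.311. With the replicate number as a block, 3 members passed limma's test, Atf3 (adjusted p = 0.0124), Fosl2 (0.0132) and Jun (0.0468), while 5.56% of all genes passed as lower. DESeq2 without the block called 2, Atf3 and Jun (adjusted p = 1.36e-05 and 0.0381), where it called 3.73% of the genes as lower. DESeq2 with the block, a fit chosen after seeing the data, called 5 (Egr2 and Egr3 beside the 3 above), with 4.31% of the genes lower. Control replicate 1 was the highest of its group for all 10 members. Without that library alone the median was -0.25, and the log2 fold change was -0.33 for Jun, -0.16 for Jund, -0.17 for Junb, -0.097 for Fos, -0.067 for Fosb, -0.41 for Fosl2, -0.40 for Egr2 and 0.067 for Egr1, none of them called. Without both P16 libraries numbered 1, no member passed the test, 8 of 10 lay below 0 and the median was -0.25. The sum of DP markers, given above, was higher in every P16 dMF1/2 library than in every P16 control library, and its part in these differences was not tested.

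**Figure D2:**
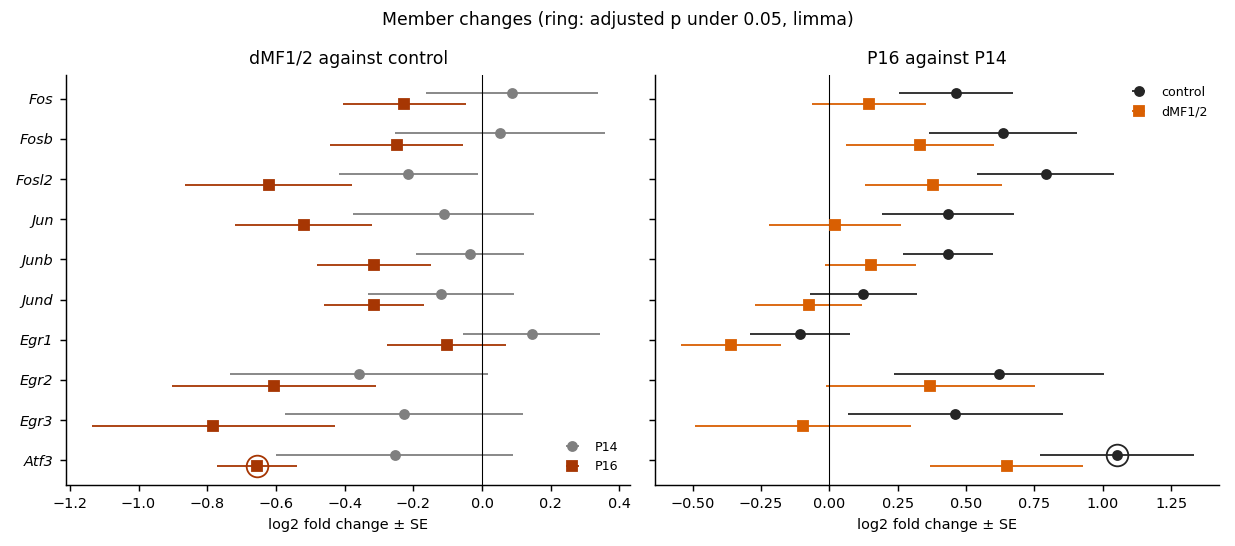
Log2 fold changes of the 10 members with their standard errors, between genotypes on each day (left) and between days in each genotype (right). Atf3 carries the ring that marks an adjusted p below 0.05 by limma, at P16 (-0.65) and for the change between days in control (1.05).

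**Figure D3:**
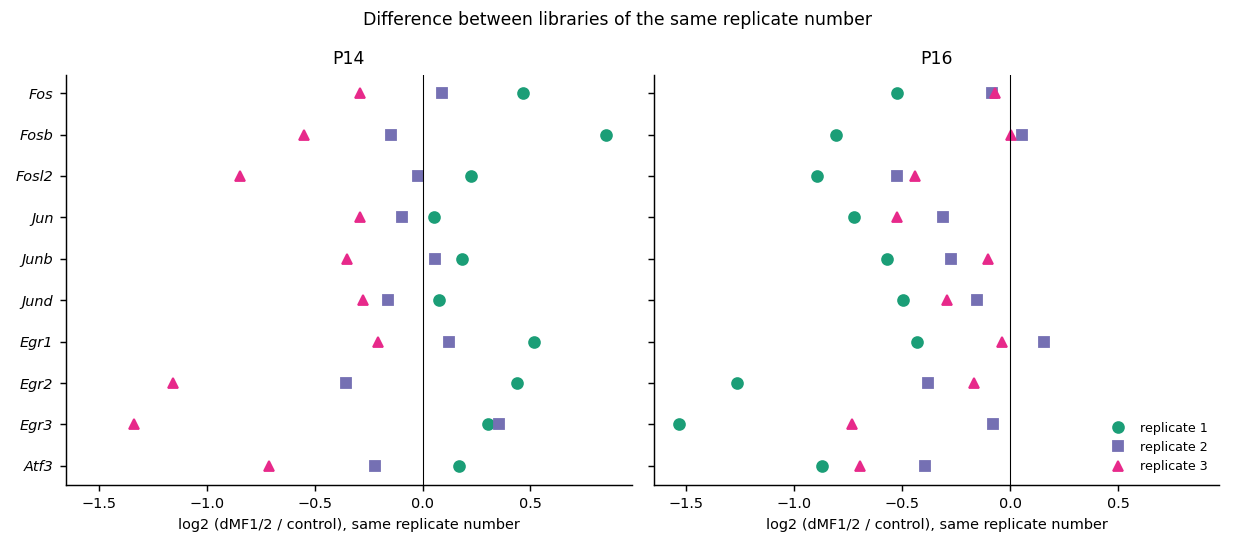
Log2 ratio of the dMF1/2 to the control library of the same replicate number, for each member and day. At P14 the first pair lies above 0 and the third below 0 for all 10 members, and at P16 the first pair lies below 0 for all 10.

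Between P14 and P16, control DP cells had higher mean levels of 9 of the 10 members, and again Atf3 passed the test. For this comparison the reads were rescaled over the 12 libraries, which moved a member's value by -2.23% to 1.43%. In control, Atf3 rose from 8717 ± 4042 to 16760 ± 1725 normalized reads (SD, n = 3 each). All P16 controls were above all P14 controls, and the log2 fold change was 1.05 (SE 0.28, limma adjusted p = 0.0309). The Atf3 increase in control kept its call without both P14 libraries numbered 1 (log2 fold change 0.67, adjusted p = 0.0397). Leaving out any of 5 control libraries ended the call: P14 replicate 1 (0.67, adjusted p = 0.0704), P14 replicate 2 (1.09, 0.0652), P16 replicate 1 (0.97, 0.101), P16 replicate 2 (1.11, 0.0504) or P16 replicate 3 (1.07, 0.0730). Among all genes 6.26% of 13415 passed as higher and 8.28% as lower. DP markers moved over the same control libraries: 6 of 12 fell from P14 to P16, the median of the 12 was -1.01 on the log2 scale, and their sums of 4537 to 9248 CPM at P14 and 1778 to 3640 at P16 did not overlap. The part of this shift in the members' values was not tested.

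Fosl2 followed in control with a log2 fold change of 0.79 (SE 0.25, limma adjusted p = 0.0561; 1.03 and 0.0237 without P16 control replicate 2, 0.79 and 0.0460 without P14 dMF1/2 replicate 1) and Fosb with 0.63 (SE 0.27, limma adjusted p = 0.133). Junb had 0.43 (limma adjusted p = 0.0983), Fos 0.46 (0.153), Jun 0.43 (0.242), Egr2 0.62 (0.291), Egr3 0.46 (0.451) and Jund 0.12 (0.700). Egr1 had -0.11 (limma adjusted p = 0.720) and was the member whose mean was not higher. Fosb, Fosl2, Junb and Atf3 did not overlap between the days, and 17.5% of all genes were higher without overlap. DESeq2 called Fosl2 (adjusted p = 0.0116) and Junb (0.0424) beside Atf3, with 7.57% of the genes called higher. The median of the 10 members was 0.46, against 0.014 for all genes. Leaving out replicate 1 of the P14 controls gave 0.29, replicate 1 of the P16 controls 0.31 and replicate 3 of the P14 controls 0.69. Without P14 control replicate 1, Fos and Fosb had 0.29 each and Jun 0.20, and without P16 control replicate 1, Junb had 0.29, Egr2 0.41 and Egr3 0.12.

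In dMF1/2, no member passed the test between P14 and P16, where 5.80% of the genes passed in either direction. Atf3 went from 6827 ± 1291 to 10592 ± 990 normalized reads (SD, n = 3 each), without overlap of the days and with a log2 fold change of 0.65 (SE 0.28, limma adjusted p = 0.194). Fos and Fosb also did not overlap and had higher means at P16, with log2 fold changes of 0.14 and 0.33 (limma adjusted p = 0.739 and 0.514). Egr1 lay lower at P16 in every mutant library, with a log2 fold change of -0.36 (SE 0.18, limma adjusted p = 0.271; -0.23 without P14 dMF1/2 replicate 1). Jun, by contrast, had 0.02 (SE 0.24, limma adjusted p = 0.970), and the median of the members was 0.15 (0.095 without P14 dMF1/2 replicate 3 and 0.096 without P16 dMF1/2 replicate 3). No DP marker passed in this comparison, and the median of the 12 was -0.33. The background of genes without overlap was 13.2% higher and 14.4% lower.

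The genotype effect at P16 was not shown to differ from that at P14 for any member. All 10 interaction values lay below 0 on the log2 scale, from -0.20 for Jund to -0.56 for Egr3, with a median of -0.31 against -0.012 for all genes. Single libraries moved that median: leaving out replicate 1 of the P16 controls gave -0.16, replicate 1 of the P14 controls -0.19 and replicate 3 of the P14 controls -0.52. None of the 10 reached an unadjusted p under 0.05 and none passed limma's test, as none of 13415 genes did (0% of them, with 648 at an unadjusted p under 0.05, and 6 genes by DESeq2). Under the replicate block Jun had an unadjusted p of 0.0383 in limma, and none passed. The interaction of Atf3 was -0.40 (SE 0.40, unadjusted p = 0.330 by limma). It was -0.026 when P14 control replicate 1 was left out and -0.74 when P14 control replicate 3 was, and that of Egr3 was -0.22 when P16 control replicate 1 was left out and -1.0 when P16 control replicate 2 was. Both genotype comparisons and both changes between days enter this value, so they are not separate sources for it.

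The spread of each member over the 12 libraries was split into parts for genotype, day, their interaction (1 degree of freedom each), replicate number within day and a remainder (4 each). Genotype held a median of 16.5% of the members' sum of squares, against 6.85% over all genes, and day held 31.8% against 20.3%. Replicate number within day held 25.3% against 31.2%, and the remainder 21.5% against 13.4%. Jun, Egr3, Fosl2 and Jund had the larger genotype parts, 22.7%, 21.2%, 19.8% and 19.5%. In Fos, Fosb and Egr1 the genotype part was 2.16%, 1.76% and 0.125%. Day held 51.6% of the sum of squares of Atf3. Replicate number within day held 67.7% of that of Jund and 50.9% of that of Jun. It carries 4 degrees of freedom against 1 each for genotype and day, so these parts are not comparable by size. The SD within groups had a median of 0.33 on the log2 scale over the members and 0.19 over all genes, and the median member had a larger SD than 75.6% of the genes. Egr3 and Egr2, with the fewest reads, had the largest SDs of the members, 0.57 and 0.56, and Junb the smallest, 0.20.

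**Figure D4:**
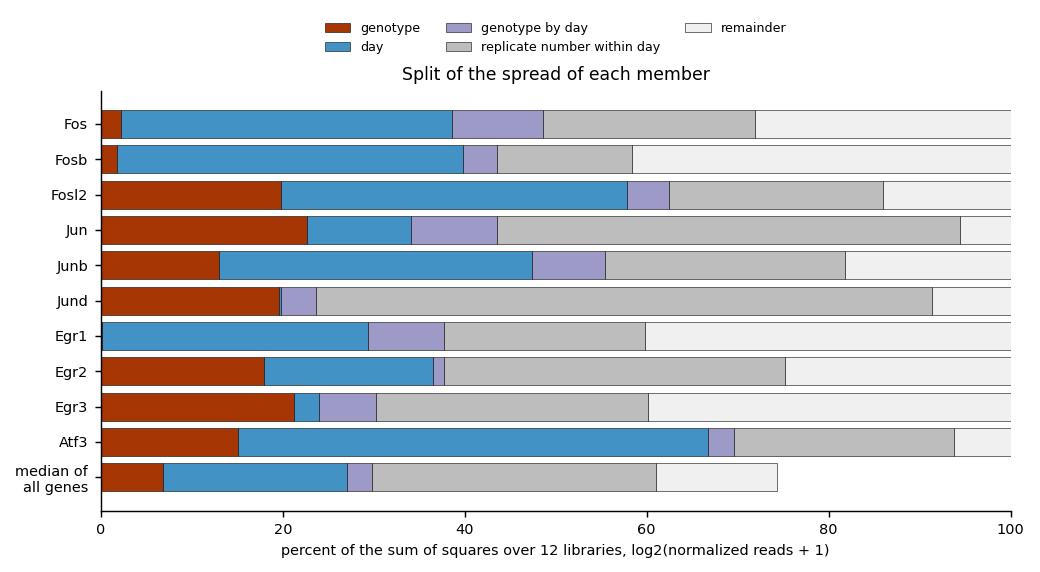
Split of each member's sum of squares over the 12 libraries, in percent, into genotype, day, genotype by day, replicate number within day and remainder. The last bar gives the medians of all genes for each part, which need not add to 100. The largest part is replicate number within day in Jund and Jun, and day in Atf3. Replicate number and the remainder carry 4 degrees of freedom each and the other parts 1 each, so sizes are not directly comparable between them.

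Other immediate early genes were listed apart from the members. At P16, 7 of 55 tested fell in dMF1/2 and none rose (2.14% of all genes fell and 2.18% rose), and 50 of 55 had log2 fold changes below 0, with a median of -0.52. Dusp2, a phosphatase that acts on ERK, had -2.06 (SE 0.28, limma adjusted p = 0.00866), the nuclear receptor gene Nr4a2 -1.68 (0.00329), Ier5 -1.08 (0.0395), the growth arrest gene Gadd45a -1.01 (0.0193) and Ier5l -0.92 (0.0395). With the replicate number as a block, 26 fell and 1 rose, where 5.56% of all genes fell and 4.87% rose. At P14, none of 54 passed, the median was -0.19, and the smallest p-values were those of Plk2 and Nr4a2. Under the replicate block these 2 passed at P14, Plk2 higher in dMF1/2 (0.62, adjusted p = 0.0430) and Nr4a2 lower (-1.47, 0.0481), as did 1.68% of all genes. From P14 to P16 in control, 13 of 55 rose and none fell, where 6.26% of all genes rose and 8.28% fell, among them Dusp2 (1.57, limma adjusted p = 0.0269) and Il6 (1.30, 0.00912). None passed in dMF1/2.

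Of the heat shock genes, whose products help proteins fold, 2 of 18 fell in dMF1/2 at P16, as 2.14% of all genes did. All 18 log2 fold changes lay below 0, with a median of -0.29. The 2 were Hspb1, with -1.81 (SE 0.34, limma adjusted p = 0.0273), and Hspb8, with -0.43 (limma adjusted p = 0.0258); both encode small heat shock proteins. With the replicate number as a block 4 passed, all lower, where 5.56% of all genes were. No heat shock gene passed at P14 (median -0.16). In control, 7 of 18 rose from P14 to P16 (6.26% of all genes did), among them Hspb1 (1.87, limma adjusted p = 0.0339), Hspa1b (1.77, 0.0481) and Hspa1a (1.73, 0.0332), the latter a near-identical pair whose reads can be split between the copies. In dMF1/2 1 rose, Hsph1 (1.25, limma adjusted p = 0.0236), where 1.83% of all genes rose.

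Averaged over each list, the level of the other immediate early genes was lower in dMF1/2 by 0.22 at P14 and 0.55 at P16 on the log2 scale, that of the heat shock genes by 0.21 and 0.36, and that of the members by 0.11 and 0.45. At P16 every mutant library was below every control library for the members and for the other immediate early genes, while the heat shock lists overlapped. With the heat shock average as a covariate, the median log2 fold change of the members at P16 was -0.23 and none was called, but that fit called 12 genes in all. The part of tissue handling in the genotype difference was not tested.

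Library by library, each member was correlated with these averages after the group means were removed. All 20 correlations (10 members, 2 averages, 12 libraries) were above 0, and 1 passed. That of Egr3 with the other immediate early genes passed adjustment over the 20, with Pearson's r = 0.947 and Spearman's rho = 0.958 (exact permutation within groups, adjusted p = 0.0154 for both), and r was 0.907 without the 2 libraries farthest from the median. With these 2 libraries left out 14 of the 20 correlations were above 0. The arrangements left within groups were then too few for a single correlation to pass adjustment over the 20. This setting therefore cannot tell whether a correlation would pass. Fosl2 followed with r = 0.797 and rho = 0.804 (exact permutation, adjusted p = 0.0772 and 0.131; r = 0.822 without the 2 libraries). Against heat shock genes the values ran from r = 0.208 for Jund to 0.604 for Fosl2, none past the threshold. The permutation shuffled each group on its own and did not keep same-numbered libraries together. Its p-values therefore do not allow for that pairing. Between members, 41 of 45 pairs correlated above 0 with a median r of 0.56 over the same 12 libraries, which share depth and handling. The genes whose group-centred levels were most like the mean of the members were Il6 (r = 0.955), Rragb (0.953), Batf (0.948), Klf9 (0.940) and Fbxo30 (0.933), given as a description over 12 libraries; among the first 20, 7 were in the list of other immediate early genes and 0 in the heat shock list.

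**Figure D5:**
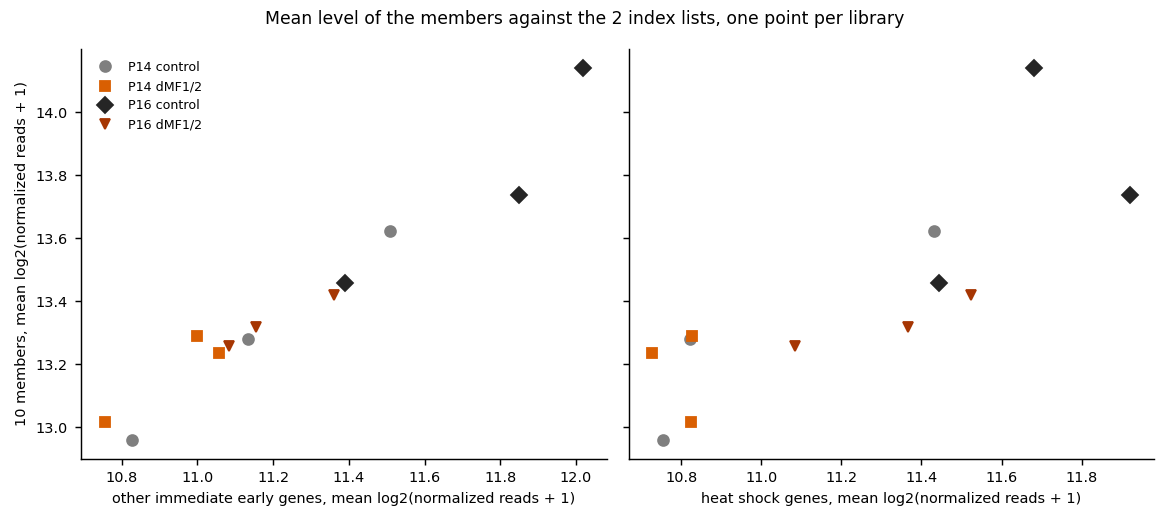
Mean log2 level of the 10 members in each library against that of the other immediate early genes (left) and of the heat shock genes (right), with symbols for the 4 groups. The 3 P16 control libraries lie highest in the members among the P16 libraries, and P14 control replicate 3 lies above the other P14 libraries.

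Genes that work with the members were read from lists, whose counts stand beside the shares of all genes called: at P16 2.14% lower and 2.18% higher, or 5.56% and 4.87% with the block, and at P14 0.0525%, or 1.68% with the block. Between the days the shares were 6.26% higher and 8.28% lower in control and 1.83% higher and 3.97% lower in dMF1/2. A single called gene is not a result about its list. Among 25 AP-1 and CREB/ATF partners, 1 fell in dMF1/2 at P16, Mafg (log2 fold change -0.80, SE 0.17, limma adjusted p = 0.0426), which encodes a small Maf protein; 8 fell with the replicate number as a block (5.56% of all genes). In that list 17 of 25 had values below 0, with a median of -0.12. In control 5 of the 25 rose from P14 to P16, against 6.26% of all genes: Bach1 (0.81, limma adjusted p = 0.00537), Mafk (0.61, 0.0327), Maf (0.58, 0.0489), Atf6 (0.49, 0.00646) and Nfe2l2 (0.33, 0.0464). Bach1, Mafk and Nfe2l2 encode factors of the oxidative stress response. None of the partners passed at P14 or between the days in dMF1/2.

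Upstream, 1 of 29 ERK, JNK and p38 pathway genes passed between the genotypes at P16, where 2.18% of all genes were higher and 2.14% lower. This was Rps6ka5, which encodes MSK1, a kinase downstream of ERK and p38, and it was higher in dMF1/2 (log2 fold change 1.70, SE 0.16, limma adjusted p = 0.00392). With the replicate number as a block, Mapk3, the ERK1 gene, also passed and fell (-0.31, adjusted p = 0.0354), and Rps6ka5 was also called at P14 (1.03, 0.0110). Braf and Mapk8, a Raf kinase and the JNK1 gene, rose between the days in control (0.59 and 0.66, limma adjusted p = 0.00190 and 0.00277) and in dMF1/2 (0.39 and 0.39, 0.0187 and 0.0389), and Nras rose in dMF1/2 (0.31, 0.0403). Of 7 genes for serum response factor and its cofactors, none passed between the genotypes without the block, and with it 1 rose (Mkl1, 0.33, adjusted p = 0.0404) and 1 fell (Elk3, -0.42, 0.0217) at P16, while Myocd rose at P14 (0.69, 0.0427). Between the days in control, Mkl1 fell by 0.52 and Elk1 fell by 0.38 on the log2 scale while Elk4 rose by 0.27 (limma adjusted p = 0.0164, 0.0336 and 0.0376). Elk1 also fell by 0.42 in dMF1/2 (limma adjusted p = 0.0387). No tested gene of the Egr partner list (4 or 5 of 6 tested), which holds the corepressors Nab1 and Nab2, passed in any comparison.

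Of 15 known AP-1 and Egr1 targets tested, a single gene fell in dMF1/2 at P16 (2.14% of all genes did), Tgfb1, with a log2 fold change of -0.96 (SE 0.14, limma adjusted p = 0.0111). It encodes the growth factor TGF-beta 1. With the replicate number as a block Mmp3, a matrix protease gene (-0.65, adjusted p = 0.00504), and Hmox1, the heme oxygenase gene (-0.39, 0.0383), fell as well, and Mmp3 fell at P14 (-0.67, 0.00797). The list's median was -0.37, with 12 of 15 below 0. In control, Icam1 (1.07, limma adjusted p = 0.0238) and Hmox1 (0.97, 0.0269) rose from P14 to P16, and Icam1 rose in dMF1/2 too (1.01, 0.0488).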

How the data were processed

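Per the methods, the authors used Trimmomatic for trimming, Tophat 2 for mapping to mm10 and HTSeq-count for counting per Ensembl gene (GRCm38.p4). The deposited signal values are counts divided by DESeq2 size factors over the 6 libraries of a day; whole reads were recovered for 100% of values (tolerance 1e-06), and edgeR and DESeq2 ran on those. The authors' own DESeq2 comparison is in the same tables as log2 fold changes, score values (their standard error and the Wald statistic) and p-values, none of which was used. Each day's genotype comparison used limma 3.58.1 (R 4.3.3) on log2(normalized reads + 1), so fold changes of low genes are understated, on genes averaging 10 normalized reads or more, Benjamini-Hochberg threshold 0.05. Days were compared after joint median-of-ratios scaling of the shared genes. All 10 members passed the filter. The members and lists were chosen with earlier results of these data known. Named were the members, called genes of each list (up to 5, by size) or the smallest p-values, 5 genes most like the members' mean, and the targeted genes; genes called with the block were named after their values were seen. The replicate number was taken to pair libraries of a day because every same-number correlation exceeded 0.1. Each mouse is 1 library. Scripts were tested on simulated data. Alternatives were edgeR 4.0.16, DESeq2 1.42.0, other pseudocounts, filters, scaling and designs, and leaving out libraries. The values of 1 listed gene are not reported here.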

Additional observations from a re-analysis of the deposited data

How the results depend on the processing

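Of the 10 members, 0 were called at P14, in dMF1/2 between the days and in the interaction under every alternative run. At P16, where 1 was called, DESeq2 called 2, the replicate block 3 and DESeq2 with that block (chosen after seeing the data) 5, while the heat shock covariate, the joint fit of 12 libraries and leaving out both libraries numbered 1 (chosen after seeing the data) gave 0; with single libraries left out the count ran from 0 to 2. The change in control gave 3 with DESeq2 and 0 to 2 with a library left out. The replicate block changed no other call of a member; changes between days could not be estimated with it. Of the 20 correlations, 1 passed, and 14 did without centring on group means. Without the 2 farthest libraries, too few arrangements were left for a single correlation to pass. The replicate-number part of the spread stayed within the members' SD with a pseudocount of 10.

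Values of single members that changed sign were all uncalled. At P14, without both libraries numbered 1, Fos had -0.10, Fosb -0.35 and Egr1 -0.041; Fosb had -0.019 with DESeq2 and -0.018 with edgeR; with the heat shock covariate Jun had 0.060, Junb 0.029 and Atf3 0.074. At P16, without both libraries numbered 1, Fosb had 0.030 and Egr1 0.060. Without both P14 libraries numbered 1, Jund had -0.10 in control between the days, Jun -0.13 in dMF1/2, and the interactions of Fosb and Egr2 were 0.10 and 0.15. With single libraries left out, the P14 values ranged from -0.084 to 0.29 for Fos, -0.29 to 0.26 for Fosb, -0.34 to 0.065 for Jun, -0.15 to 0.051 for Junb, -0.34 to 0.0076 for Jund, -0.50 to 0.067 for Egr3 and -0.63 to 0.083 for Atf3, and that of Egr1 at P16 from -0.24 to 0.067. In control between the days, Jund ranged from -0.10 to 0.25 and Egr1 from -0.28 to 0.032. In dMF1/2, Jun ranged from -0.13 to 0.11, Jund from -0.20 to 0.0062 and Egr3 from -0.39 to 0.18. The interactions ranged from -0.51 to 0.041 for Fosb, -0.32 to 0.026 for Jund and -0.54 to 0.21 for Egr2. The cause was not tested for any of these.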
